A study of Mus musculus with 9 samples.

Results

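The interleukin 1 and inflammasome genes described here were 9 genes chosen by symbol from the 23420 rows of the expression table: the ligands Il1b and Il18, the antagonist Il1rn, the receptor chains Il1r2 and Il1rap, the sensor Nlrp3, the adaptor Pycard, and the proteases Casp1 and Casp4. Their RNA was measured in 9 sequencing libraries, each prepared from 100 Mac1+ cells sorted from the bone marrow of C57BL/6 mice. Mac1 is the integrin encoded by Itgam, carried by neutrophils, monocytes and some dendritic cells. The DKOITD group (n = 4) was Ezh2 fl/fl Runx1 fl/fl with Rag1Cre+ and the Flt3 ITD/+ allele, an internal tandem duplication in the receptor kinase FLT3. The ITD group (n = 2) was Ezh2 fl/fl Runx1 fl/fl with Flt3 ITD/+ and no Cre. The WT group (n = 3) was Ezh2 fl/fl Runx1 fl/fl with neither Cre nor ITD, so the floxed alleles were shared by all 3 groups. No treatment was named, and the age of the mice was not given in the sources used here. The labels do not say that the libraries came from separate animals, so the p-values measure the spread between these libraries, which may be technical. Rag1Cre is driven from a gene of early lymphoid cells. The share of Mac1+ cells in which the floxed alleles were deleted was not given, and the table has no value for single exons.

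Interleukin 1β and interleukin 18 are made as inactive precursors that a protease must cut before they signal. In an inflammasome, a sensor such as NLRP3 gathers the adaptor ASC, the product of Pycard, which brings in caspase-1, the protease that cuts both precursors. Caspase-11, the product of mouse Casp4, senses bacterial lipopolysaccharide inside the cell and opens the gasdermin D pore. Outside the cell, the receptor antagonist encoded by Il1rn occupies the interleukin 1 receptor without signalling, and the decoy receptor encoded by Il1r2 holds interleukin 1 without passing a signal on. IL1RAP is the co-receptor chain that the signalling receptors need. In marrow these genes are used mainly by neutrophils, monocytes and dendritic cells. RNA levels show neither the cutting nor the release of the cytokines.

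Il18 and Il1rn were the only members that passed the test in any of the 3 comparisons, Il18 higher and Il1rn lower in DKOITD than in WT, and the 250 bases before their RefSeq starts (build GRCm38.p6) are shown with those of Il1b, the ligand that Il1rn opposes. Runx1 is a floxed gene in these mice, so each window was searched on both strands for TGTGGT, the core letters that RUNX factors bind. PU.1 and C/EBP, factors of myeloid cells, were searched as GAGGAA and TTGCNNAA, NF-κB by its consensus and the TATA box as TATAAA. Matches are in capitals, 5′ to 3′ on the strand of the gene, and no matches overlapped in the 3 windows.
Il18, chr9:50554450-50554699, plus strand: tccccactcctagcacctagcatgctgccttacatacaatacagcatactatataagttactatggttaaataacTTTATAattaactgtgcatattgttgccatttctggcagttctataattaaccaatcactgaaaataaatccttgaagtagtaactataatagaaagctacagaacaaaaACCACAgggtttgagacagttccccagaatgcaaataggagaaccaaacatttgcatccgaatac
Il1rn, chr2:24336610-24336859, plus strand: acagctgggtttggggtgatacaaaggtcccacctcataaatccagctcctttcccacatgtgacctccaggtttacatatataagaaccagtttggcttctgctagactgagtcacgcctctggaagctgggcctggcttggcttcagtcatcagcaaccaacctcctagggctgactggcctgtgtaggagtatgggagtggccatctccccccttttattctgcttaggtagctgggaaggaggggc
Il1b, chr2:129371140-129371389, minus strand: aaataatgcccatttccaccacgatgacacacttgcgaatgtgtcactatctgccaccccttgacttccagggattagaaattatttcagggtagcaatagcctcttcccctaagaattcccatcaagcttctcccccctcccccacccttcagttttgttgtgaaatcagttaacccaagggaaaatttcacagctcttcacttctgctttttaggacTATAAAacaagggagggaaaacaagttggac
In the Il18 window ACCACA, the RUNX letters on the other strand, stood at positions -65 to -60, counted back from the start, and TTTATA, the TATA letters on the other strand, at -175 to -170. The Il1b window held TATAAA at -31 to -26, and the Il1rn window held none of the 5 motifs, which says only that these letters are not in this window. Of the 32851 RefSeq mouse promoters searched the same way, 14.0% held the RUNX letters, 23.3% those of PU.1, 9.56% those of C/EBP, 7.25% the NF-κB consensus and 12.4% those of TATA. Such matches are letters, not sites of binding. RefSeq listed promoters for 9 of 9 members, with more than 1 start for Il1rn, Nlrp3 and Casp4. The Il1rn window shown is the most upstream of those listed. It ends at chr2:24336859, just past the GENCODE start of the gene at chr2:24336853. The other Il1rn windows, from chr2:24345041 and chr2:24345121, held no match either. Of the windows not printed, both of Casp4 and 1 of Nlrp3 matched the NF-κB consensus. The other Nlrp3 window held 3 matches to the PU.1 letters, the Casp1 window held 1, and the Pycard window held 1 together with 1 match to those of C/EBP.

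Depth, marker genes and library scaling bear on all values that follow. Whole reads recovered from the steps of the deposited values ranged over the libraries from 2825728 (DKOITD 2) to 23124435 (WT 1). The values are RPKM, reads per kilobase of gene scaled for library size, but the authors' per-library divisor was not the library's own total. It was 1.13 to 1.44 times the recovered reads in DKOITD, 0.853 to 0.919 times in ITD and 0.703 to 0.810 times in WT, and followed factors from a trimmed mean of ratios to within 0.0007. Itgam, the gene of the sorting marker, was present in every library but lower in DKOITD, at 11.0, 33.3, 24.8 and 39.0 RPKM, against 100.5, 143 and 90.3 RPKM in WT (log2 difference -2.11 ± 0.40 (SE), adjusted p = 0.00813). Ezh2, at 1.54 to 18.1 RPKM in DKOITD and 2.05 to 12.4 RPKM in WT, did not pass the test between them (0.14 ± 0.69, adjusted p = 0.913), nor did Runx1 (0.78 ± 0.46, adjusted p = 0.269), whereas Flt3 was higher in DKOITD (4.56 ± 0.76, adjusted p = 0.00474). Summed RPKM of 13 measured mature neutrophil markers lay between 37288 and 271060 in DKOITD, 694410 and 740067 in ITD, and 893111 and 1199260 in WT, and 11 of the 13 fell in DKOITD against WT. Of 12 dendritic cell and MHC class II markers 11 rose in DKOITD against WT, with sums of 9442 to 38139 in DKOITD, 4212 to 11354 in ITD and 44.3 to 1206 in WT. Of 12 monocyte and macrophage markers 6 rose and none fell, and their sums overlapped between DKOITD (2464 to 3690) and WT (2605 to 3307), with both ITD sums above them (3978 and 4174). Ly6c2 was the largest part of each sum, and was lower in DKOITD than in WT without overlap or a call by limma (-0.65 ± 0.27, adjusted p = 0.128). The mean log2(RPKM + 1) of the 12, which weighs each gene alike, did not overlap. It was 5.67 to 6.18 in DKOITD, 5.18 and 5.29 in ITD and 3.87 to 5.14 in WT. The B cell gene Pax5 and the T and NK cell genes Cd3e and Il2rb were at 0 in all 9 libraries, but other genes of these lists were present. B cell sums were 42.7 to 70.8 in DKOITD, 7.65 and 23.2 in ITD and 5.16 to 15.5 in WT, nearly all of it Cd79b, which was higher in DKOITD than in WT (2.43 ± 0.44, adjusted p = 0.00669). T and NK cell sums were 0.125 to 4.36 in DKOITD, 2.44 and 17.6 in ITD and 9.08 to 158 in WT, with Cd3d lower in DKOITD than in WT without overlap or a call (-2.22 ± 0.71, adjusted p = 0.0602). Erythroid sums were 0 to 1.40 in DKOITD, 0 and 2730 in ITD and 17.8 to 17156 in WT, and the globin gene Beta-s was lower in DKOITD than in WT (-10.1 ± 2.42, adjusted p = 0.0214). WT 2 stood apart, with a median correlation of 0.759 with the other libraries, against 0.815 to 0.881 for those, and it alone held the cytotoxic gene Gzma (146 RPKM) and the NK receptor gene Ncr1 (6.95 RPKM). In cells sorted in bulk, fewer cells of a type and less RNA per cell cannot be told apart, and the part of these markers in the results below was not tested.

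DKOITD was first set against WT, which asks how cells with Cre and ITD differed from cells with the floxed alleles alone. All 9 members passed the filter on low values (at least 1 RPKM in at least 2 libraries), as did 10868 genes in all. With limma's moderated test on log2(RPKM + 1) and Benjamini-Hochberg adjustment over those genes, 2 of the 9 members passed an adjusted p of 0.05, Il18 upwards and Il1rn downwards, where 12.7% of all genes passed, 7.43% upwards and 5.27% downwards. The groups did not overlap for 5 members, of which Il18, Pycard and Casp4 were higher in DKOITD and Il1rn and Il1rap lower, where 25.0% of all genes did not overlap, 14.1% higher and 10.9% lower. An unadjusted p under 0.05 was reached by 4 members, Il18, Il1rn, Il1b and Pycard, where 30.2% of genes reached it. The median log2 difference of the members was 0.40, against 0.17 for all genes tested.

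Among the ligands, Il18 (chr9:50554827-50581840) had 54.9, 31.9, 66.6 and 51.1 RPKM in the DKOITD libraries, against 30.9, 0 and 6.68 RPKM in WT. Every DKOITD library lay above every WT library, but DKOITD 2 and WT 1 were only about 1 RPKM apart. WT 2 held no read of Il18, and 3 reads would have given 0.306 RPKM there. Averaged over libraries, Il18 stood at 51.1 ± 14.4 RPKM in the 4 DKOITD libraries (SD), against 12.5 ± 16.3 RPKM in the 3 WT libraries. The log2 difference was 3.01 ± 0.85 (SE), with a 95% interval of 1.15 to 4.87 and an adjusted p of 0.0394 by limma. Its size rested in part on WT 2: without that library the difference was 1.69 ± 0.52 and the adjusted p 0.0774, and with a pseudocount of 0.1 the difference was 4.16 with an adjusted p of 0.0942. The call was also lost when any other library except WT 1 was left out, with adjusted p between 0.0517 and 0.105 for those.

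Il1b (chr2:129364570-129371139), the gene of interleukin 1β, had 7.25, 2.68, 12.7 and 36.6 RPKM in DKOITD, against 30.7, 48.6 and 21.3 RPKM in WT. DKOITD 1 to 3 lay below all WT libraries, while DKOITD 4 lay among them. The difference, -1.55 ± 0.68 (SE), did not pass the test (adjusted p = 0.149). Without DKOITD 4 it was -2.13 and passed (adjusted p = 0.0463), the only 1 of 20 alternative fits in which Il1b passed. DKOITD 4 was the only DKOITD library with a label number in the series of the WT libraries, described below. Without it, genotype and that series cannot be told apart. The lowest value rested on 13 reads in DKOITD 2, for which counting error alone allows 1.43 to 4.58 RPKM (exact Poisson 95% interval). Without molecular identifiers PCR copies count as separate reads, so such intervals cover counting error only.

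The antagonist gene Il1rn (chr2:24336853-24351494) had 22.9, 1.93, 5.94 and 16.8 RPKM in DKOITD, against 70.3, 39.7 and 64.8 RPKM in WT. All 4 DKOITD libraries lay below the lowest WT library. The mean was 11.9 ± 9.67 RPKM in the 4 DKOITD libraries (SD), against 58.3 ± 16.3 RPKM in the 3 WT libraries, and the log2 difference was -2.58 ± 0.61 (SE, 95% interval -3.91 to -1.24, adjusted p = 0.0210). Il1rn was the member with the steadiest call, past the threshold in 15 of 20 alternative fits and below 0 in all 20. It missed the threshold without DKOITD 3 (-2.42, adjusted p = 0.0630) and without WT 1 (-2.42, adjusted p = 0.0610). Neutrophil marker sums were lower in the same 4 libraries, at 60183, 218429, 37288 and 271060 in DKOITD 1 to 4, against at least 893111 in WT. Within DKOITD the 2 orders did not match, since Il1rn was highest in DKOITD 1 and lowest in DKOITD 2. The part of the markers in Il1rn was not tested.

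Of the receptor chains, the decoy receptor gene Il1r2 (chr1:40074079-40125231) had 8.82, 194, 6.46 and 42.0 RPKM in DKOITD, against 68.5, 78.1 and 113 RPKM in WT. DKOITD 2 held the highest value of all 9 libraries, and the other 3 DKOITD libraries lay below every WT library. With all libraries the difference was -1.61 ± 0.87 (SE, adjusted p = 0.235), and without DKOITD 2 it was -2.55 and passed (adjusted p = 0.0205). DKOITD 2 and DKOITD 4, the higher pair, were also the higher pair in neutrophil markers, with sums of 218429 and 271060 against 60183 in DKOITD 1 and 37288 in DKOITD 3. Within that pair the order was reversed, DKOITD 2 being higher in Il1r2 and lower in the markers. DKOITD 2 also exceeded every WT library in Il1r2, although all WT marker sums were higher, at 893111 or more. The part of the markers in Il1r2 was not tested. The co-receptor gene Il1rap (chr16:26581704-26730117) was low throughout, at 1.83, 0.451, 2.396 and 2.74 RPKM in DKOITD, against 3.68, 5.19 and 4.01 RPKM in WT. These groups did not overlap, but the difference of -0.97 ± 0.54 (SE) did not pass the test (adjusted p = 0.246) and was 0.04 with each column scaled to a sum of 1000000.

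The inflammasome core genes lay higher on average in DKOITD without passing the test. The adaptor gene Pycard (chr7:127989708-127993867) had 153, 136, 139 and 125 RPKM in DKOITD, against 102, 40.3 and 90.3 RPKM in WT. The DKOITD libraries were close to each other and above all WT libraries, of which WT 2 was the lowest. The difference was 0.93 ± 0.32 (SE, 95% interval 0.22 to 1.63, adjusted p = 0.0799). Casp1 (chr9:5298517-5307265) had 106, 58.4, 108 and 115 RPKM in DKOITD, against 81.8, 91.8 and 22.8 RPKM in WT. DKOITD 2 fell within the WT range, and the difference was 0.74 ± 0.45 (SE, adjusted p = 0.290). Its neighbour Casp4 (chr9:5308828-5336783) had 37.2, 36.3, 49.5 and 50.6 RPKM in DKOITD, against 19.1, 35.7 and 31.1 RPKM in WT. The groups did not overlap, by a margin of less than 1 RPKM between DKOITD 2 and WT 2, and the difference was 0.61 ± 0.44 (SE, adjusted p = 0.358). The sensor gene Nlrp3 (chr11:59541568-59566956) had 1.92, 3.27, 2.23 and 0.979 RPKM in DKOITD, against 2.70, 1.49 and 0.258 RPKM in WT. The groups overlapped widely, the WT 3 value rested on 12 reads, and the difference of 0.40 ± 0.50 (SE, adjusted p = 0.611) turned to -0.06 under quantile normalization.

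**Figure D1:**
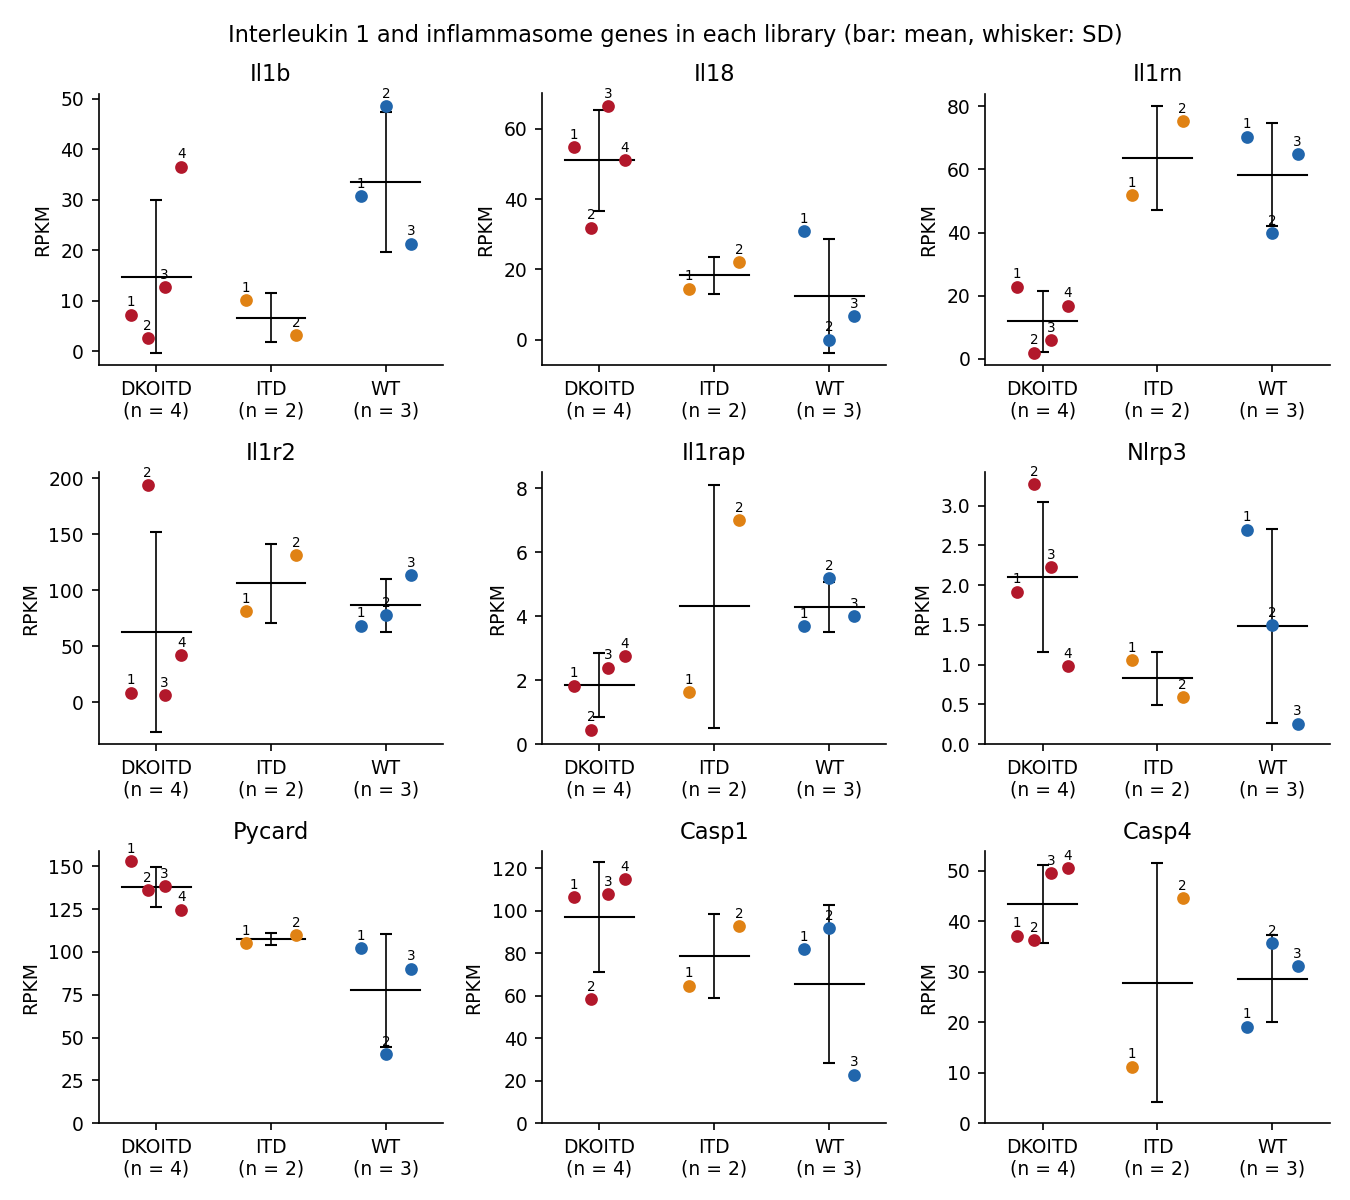
Level (RPKM, linear axis, its own range per gene) of the 9 genes in each library, with DKOITD at the left, ITD in the middle and WT at the right. Points are libraries with their replicate number, the bar is the mean and the whisker the SD. The 4 DKOITD points of Il1rn lie at or below 22.9 RPKM and all ITD and WT points at or above 39.7 RPKM, while the Il1r2 points of DKOITD run from 6.46 to 194 RPKM.

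The scaling of the columns changed which inflammasome core genes passed, and left the order of the 9 differences as it was under both rescalings tried. The median log2 difference of all genes between DKOITD and WT was 0.17 as deposited, 0.74 when each column was divided by its own recovered reads and 1.23 when each column was scaled to a sum of 1000000. Under those rescalings Pycard (1.68 and 2.32), Casp1 (1.49 and 2.13) and Casp4 (1.36 and 1.98) passed the test, with adjusted p of at most 0.0344. Many other genes passed with them. Of the 10868 genes tested, 2772 passed per recovered read (2525 higher) and 5135 at a sum of 1000000 (5008 higher), against 1380 as deposited. Relative to the median of all genes under each scaling, Pycard stood at 0.75 as deposited, 0.95 per recovered read and 1.09 at a sum of 1000000. On the same relative scale Casp1 stood at 0.57, 0.76 and 0.89, and Il18 at 2.84, 2.85 and 2.91. Il1rn stood at -2.75, -2.61 and -2.51 relative to that median, although its own difference at a sum of 1000000, -1.28, missed the threshold (adjusted p = 0.123).

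DKOITD was then set against ITD, which asks what went with Rag1Cre among cells that carried Flt3 ITD. None of the 9 members passed an adjusted p of 0.05 by limma, where 0.212% of all genes did (23 genes), and 1 member, Il1rn, had an unadjusted p under 0.05, where 15.7% of all genes did. The groups did not overlap for Il18 and Pycard, higher in DKOITD, and for Il1rn, lower in DKOITD, where 31.3% of all genes did not overlap, 17.3% higher and 14.0% lower. The median log2 difference of the members was 0.36, against 0.11 for all genes.

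Il1rn reached at most 22.9 RPKM in DKOITD, against 51.9 and 75.3 RPKM in ITD, so all 4 DKOITD libraries lay below both ITD libraries. Its difference between DKOITD and ITD was -2.72 ± 0.70 (SE), with a 95% interval of -4.23 to -1.20 and an adjusted p of 0.0868. With libraries weighted by limma the difference was -2.64 and passed (adjusted p = 0.0441). This was the only 1 of 20 alternative fits in which it passed, and 0 of the 9 fits without 1 library did. Il18 was at least 31.9 RPKM in DKOITD, against 14.5 and 22.1 RPKM in ITD, and the difference was 1.41 ± 0.97 (SE, 95% interval -0.69 to 3.52, adjusted p = 0.525). Pycard was at least 125 RPKM in DKOITD, against 105 and 110 RPKM in ITD, with a difference of 0.36 ± 0.37 (SE, adjusted p = 0.694).

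For the other 6 members the DKOITD and ITD libraries overlapped. Il1r2 ran from 6.46 to 194 RPKM in DKOITD, and its 81.5 and 131 RPKM in ITD lay inside that range, with a difference of -1.90 ± 0.99 (SE, adjusted p = 0.390). Il1b ran from 2.68 to 36.6 RPKM in DKOITD, and its 10.1 and 3.28 RPKM in ITD lay inside that range too, with a difference of 0.70 ± 0.77 (SE, adjusted p = 0.716). The ITD libraries differed most from each other for Casp4, at 11.2 and 44.5 RPKM, and for Il1rap, at 1.63 and 7.004 RPKM. With 2 libraries in ITD, differences against DKOITD of 0.90 for Casp4 (adjusted p = 0.414) and -0.77 for Il1rap (adjusted p = 0.586) changed sign when ITD 1 (Casp4, -0.05) or ITD 2 (Il1rap, 0.03) was left out. Casp1 ran from 58.4 to 115 RPKM in DKOITD, against 64.6 and 92.7 RPKM in ITD (difference 0.27 ± 0.52, SE, adjusted p = 0.852). Nlrp3 ran from 0.979 to 3.27 RPKM in DKOITD, against 1.06 and 0.594 RPKM in ITD (difference 0.72 ± 0.56, SE, adjusted p = 0.581).

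ITD against WT asks about the Flt3 ITD allele without Cre. None of the members passed by limma, where 0.0092% of all genes did (1 gene), and 1 member, Il1b, had an unadjusted p under 0.05, where 7.93% of all genes did. The groups did not overlap for Pycard, higher in ITD, and for Il1b, lower in ITD, where 19.1% of all genes did not overlap, 10.1% higher and 8.99% lower. For Il1b, 10.1 and 3.28 RPKM in ITD stood against 30.7, 48.6 and 21.3 RPKM in WT. Both ITD libraries lay below all WT libraries, and the difference was -2.25 ± 0.81 (SE, 95% interval -4.02 to -0.48, adjusted p = 0.533). For Il18 the difference between ITD and WT was 1.60 ± 1.02 (SE, adjusted p = 0.719), and both ITD libraries, at 14.5 and 22.1 RPKM, lay below WT 1 at 30.9 RPKM. This is also the difference between the other 2 comparisons of Il18, which share the DKOITD libraries, so a call against WT and none against ITD does not show that they differ. Il1rn was close in ITD and WT, with means of 63.6 ± 16.6 RPKM in the 2 ITD libraries (SD) and 58.3 ± 16.3 RPKM in the 3 WT libraries (SD). Its difference of 0.14 ± 0.73 (SE) had a 95% interval of -1.46 to 1.74, which includes changes in either direction. The remaining members had adjusted p of at least 0.736 in this comparison.

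**Figure D2:**
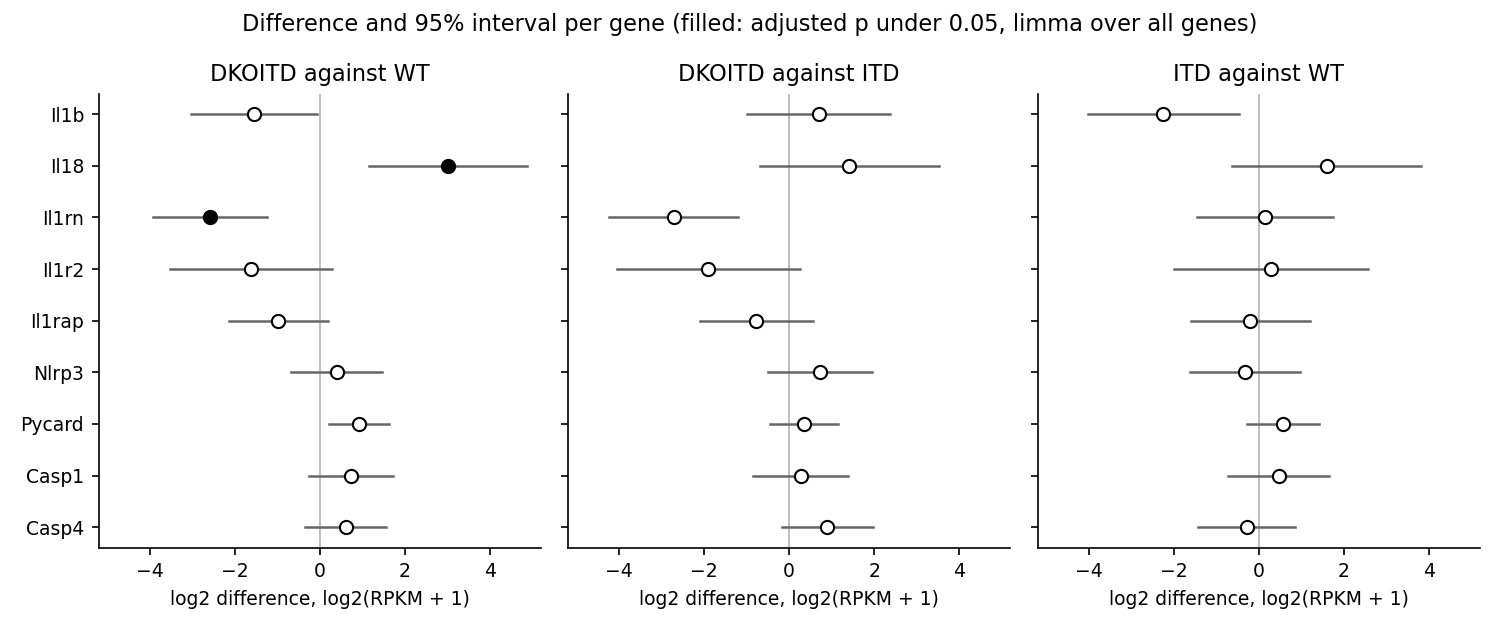
Log2 difference on the log2(RPKM + 1) scale (x axis) of the 9 genes (rows) in the 3 comparisons, with 95% intervals from limma as lines and filled points for an adjusted p under 0.05. Filled points are Il18 (3.01) and Il1rn (-2.58) in DKOITD against WT, and no point is filled in the other 2 panels.

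The spread within DKOITD differed widely between members. The highest DKOITD library exceeded the lowest 30.04-fold for Il1r2, 13.6-fold for Il1b, 11.9-fold for Il1rn and 6.08-fold for Il1rap. For Pycard the same ratio was 1.23, for Casp4 1.39, for Casp1 1.97 and for Il18 2.09. Without DKOITD 2 the ratio was 6.49 for Il1r2, 5.04 for Il1b, 3.86 for Il1rn and 1.502 for Il1rap, and 1.23 for Pycard, 1.36 for Casp4, 1.08 for Casp1 and 1.30 for Il18. In WT the widest ratios were those of Nlrp3, 10.5, and Casp1, 4.02, apart from Il18, which had a library at 0. DKOITD 2, the library with the fewest recovered reads, had the lowest DKOITD value of Il1b, Il18, Il1rn, Il1rap, Casp1 and Casp4 and the highest of Il1r2 and Nlrp3.

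Ratios of 2 members within a library do not depend on how that library was scaled. Il18 over Il1b was 7.57, 11.9, 5.23 and 1.40 in DKOITD, 1.44 and 6.73 in ITD, and 1.01, 0 and 0.313 in WT. Every DKOITD library had the higher ratio than every WT library, while ITD overlapped with DKOITD. Il1rn over Il1b, the antagonist over the ligand it opposes, was 3.16, 0.721, 0.466 and 0.461 in DKOITD, 5.13 and 23.0 in ITD, and 2.29, 0.818 and 3.04 in WT. Both ITD libraries stood above all others, and DKOITD overlapped with WT through DKOITD 1. Il1r2 over Il1rn was 0.385, 100.5, 1.09 and 2.49 in DKOITD, 1.57 and 1.74 in ITD, and 0.973, 1.96 and 1.75 in WT. Outside DKOITD the 5 libraries stayed between 0.973 and 1.96, and DKOITD 2 stood far above them. The Il1rn value of DKOITD 2, 1.93 RPKM, rested on 19 reads (exact Poisson 95% interval 1.16 to 3.02 RPKM), so the size of that ratio is uncertain. No test was run on the ratios.

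**Figure D3:**
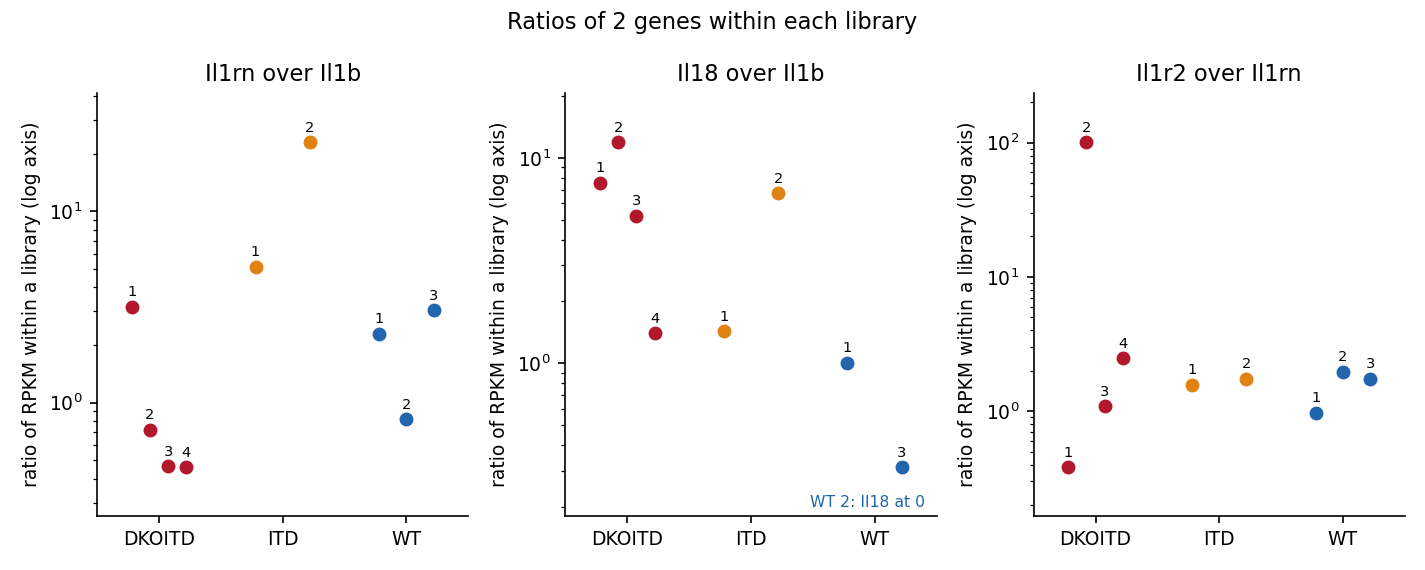
Ratio of RPKM values of 2 genes within each library (log axis), with DKOITD left, ITD in the middle and WT right, each point a library with its replicate number. All 4 DKOITD points of Il18 over Il1b (1.40 to 11.9) lie above the WT points (1.01 and 0.313, with WT 2 at 0), and DKOITD 2 stands at 100.5 for Il1r2 over Il1rn.

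Levels in RPKM are per gene length, so they can be ordered within a group. In DKOITD the order of medians was Pycard (137), Casp1 (107), Il18 (53.0), Casp4 (43.3), Il1r2 (25.4), Il1rn (11.4), Il1b (9.996), Il1rap (2.11) and Nlrp3 (2.07 RPKM). Pycard was clear of Casp1, and from there on each gene overlapped with its neighbour in the order. In WT the order was Pycard (90.3), Casp1 (81.8), Il1r2 (78.1), Il1rn (64.8), Casp4 (31.1), Il1b (30.7), Il18 (6.68), Il1rap (4.01) and Nlrp3 (1.49 RPKM). There Il1rn was clear of Casp4 and Il1rap of Nlrp3, and the other neighbours overlapped. Pycard led and Nlrp3 came last in all 3 groups, whereas the rank of Il18 was 3 in DKOITD, 6 in ITD and 7 in WT. The order between groups was not tested.

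The other genes of the pathway came from 6 lists of 96 genes, of which 90 were in the table and 75 passed the filter on low values. Between DKOITD and WT 3 rose and 3 fell, where 12.7% of all genes passed, and the median difference of the 75 was 0.12, against 0.17 for all genes. Between DKOITD and ITD and between ITD and WT none passed by limma. An unadjusted p under 0.05 was reached by 24 of them in DKOITD against WT, 13 in DKOITD against ITD and 3 in ITD against WT, where 30.2%, 15.7% and 7.93% of all genes reached it. With each column scaled to a sum of 1000000 the 3 genes that fell no longer passed (adjusted p between 0.0643 and 0.368).

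Among further ligands and binding proteins 1 of 2 tested genes fell and none rose. Il1f9, the gene of interleukin 36γ, had 11.0, 9.30, 10.2 and 33.4 RPKM in DKOITD, while the ITD libraries had 48.4 and 84.6 RPKM and the WT libraries 81.1, 59.7 and 84.3 RPKM. All DKOITD libraries lay below all others, with a difference from WT of -2.35 ± 0.44 (SE, adjusted p = 0.00732), which held in each fit without 1 library but not at a sum of 1000000 (-0.999, adjusted p = 0.0643). Against ITD the difference was -2.14 ± 0.49 (SE, adjusted p = 0.0665). Il18bp, whose protein binds and neutralises interleukin 18, had 3.61, 9.95, 5.54 and 15.4 RPKM in DKOITD, against 6.74, 0.378 and 8.19 RPKM in WT (difference 0.89 ± 0.68, SE, adjusted p = 0.387). Il1a, the gene of interleukin 1α, stayed at or below 0.693 RPKM, and Il33, Il1f5, Il1f6, Il1f8 and Il1f10 were at 0 in all 9 libraries.

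Of the 5 receptor genes tested 1 rose and none fell. Sigirr encodes a receptor that dampens interleukin 1 and Toll-like receptor signals. It had 11.0, 13.9, 18.5 and 2.82 RPKM in DKOITD, against 3.62, 0.0888 and 0 RPKM in WT, with DKOITD 4 inside the WT range (difference 2.65 ± 0.68, SE, adjusted p = 0.0277). The call was lost without DKOITD 1, 2 or 3 or WT 2 or 3, with adjusted p up to 0.0903. Il18r1 and Il18rap, the chains of the interleukin 18 receptor, did not pass (-1.53 ± 0.53, adjusted p = 0.0787, and -1.40 ± 0.50, adjusted p = 0.0820). Il1r1, the signalling interleukin 1 receptor, did not pass the filter, with 0.922, 1.36, 0.0551 and 0.172 RPKM in DKOITD, 0 and 0 in ITD, and 0.0106, 0 and 0 in WT.

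None of the 16 signal adaptors and kinases passed in any comparison. Those with the smallest p in DKOITD against WT were Peli1, a ubiquitin ligase of the pathway (1.04 ± 0.33, adjusted p = 0.0575), and Myd88, the adaptor shared by interleukin 1 and Toll-like receptors (0.89 ± 0.37, adjusted p = 0.134). Myd88 had 89.6, 50.4, 96.8 and 91.5 RPKM in DKOITD, against 25.5, 41.7 and 72.2 RPKM in WT. DKOITD 2 lay inside the WT range.

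Of 21 inflammasome sensors and regulators 1 rose and 1 fell. Panx1, a membrane channel that releases ATP, had 12.5, 5.40, 10.2 and 7.75 RPKM in DKOITD, against 4.43, 0.0426 and 0.0416 RPKM in WT (difference 2.41 ± 0.62, SE, adjusted p = 0.0276). Nlrp12, a sensor-like gene of myeloid cells, had 0.747, 0.632, 0 and 0.647 RPKM in DKOITD, against 2.15, 5.78 and 3.01 RPKM in WT (difference -1.58 ± 0.46, SE, adjusted p = 0.0420). Neither gene overlapped between these groups. The Panx1 call was lost without DKOITD 1, 3 or 4 or WT 2 or 3 (adjusted p up to 0.0876), and that of Nlrp12 without any library other than WT 1 or WT 3 (adjusted p up to 0.133).

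Of 12 effectors and caspase inhibitors 1 fell and none rose. Serpinb1a, an inhibitor of neutrophil proteases that is abundant in neutrophils, had 67.6, 298, 53.7 and 178 RPKM in DKOITD, against 255, 404 and 1059 RPKM in WT (difference -2.01 ± 0.59, SE, adjusted p = 0.0431). DKOITD 2 lay inside the WT range, and the call was lost without any library other than DKOITD 2 or WT 1 (adjusted p up to 0.119). Gsdmd, the gene of the pore protein that caspase-1 and caspase-11 cut, had 61.1, 49.7, 67.6 and 49.7 RPKM in DKOITD, against 42.4, 44.7 and 57.6 RPKM in WT, and was chosen after its values were seen. Its groups overlapped (difference 0.24 ± 0.28, SE, adjusted p = 0.585). Of 19 NF-κB factors, feedback genes and early targets 1 rose and none fell. Icam1, an adhesion molecule induced by NF-κB, had 20.2, 7.97, 26.8 and 22.6 RPKM in DKOITD, while the ITD libraries had 1.43 and 3.39 RPKM and the WT libraries 0.463, 0 and 2.86 RPKM. All DKOITD libraries lay above all others, with a difference from WT of 3.40 ± 0.59 (SE, adjusted p = 0.00539), which held in each fit without 1 library. The chemokine genes Cxcl1 and Cxcl3 were at 0 in all 9 libraries.

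**Figure D4:**
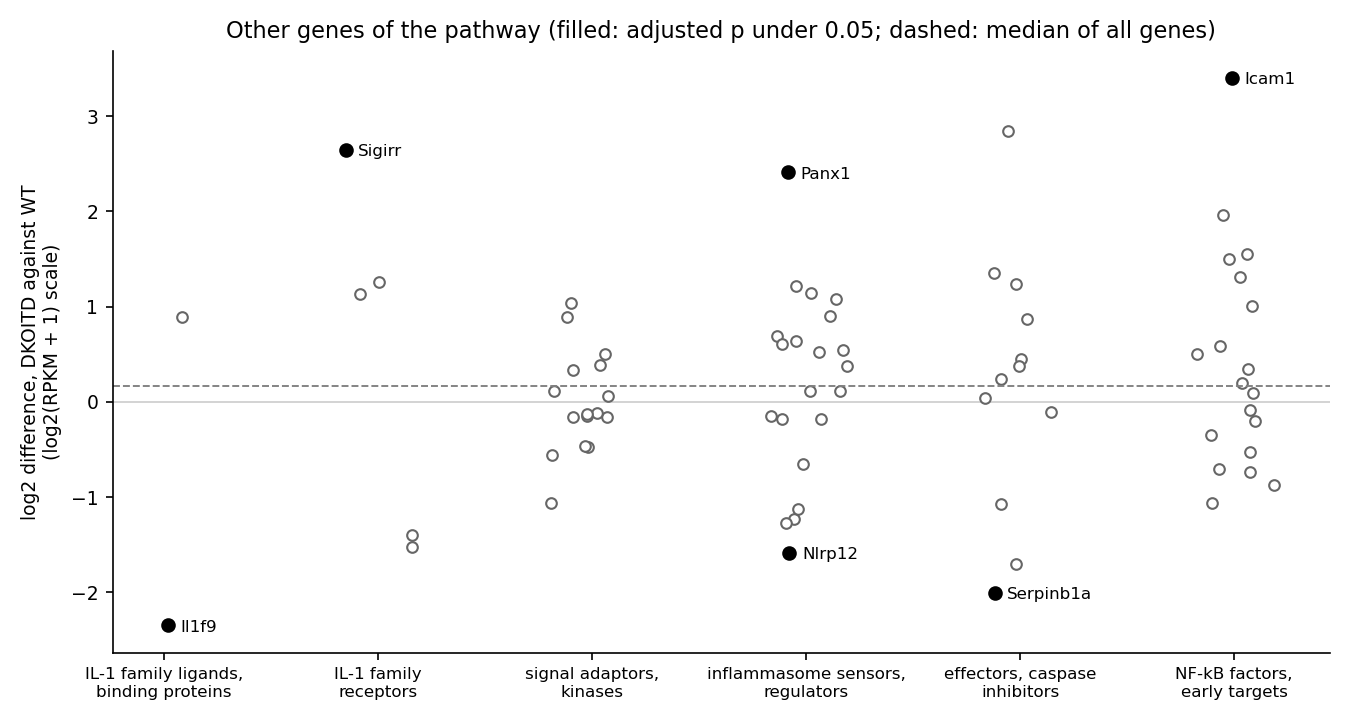
Log2 difference between DKOITD and WT on the log2(RPKM + 1) scale (y axis) for the 75 tested genes of 6 lists (x axis), filled for an adjusted p under 0.05, with the median of all genes (0.17) dashed. Filled and named are Icam1 (3.40), Sigirr (2.65) and Panx1 (2.41) above 0 and Nlrp12 (-1.58), Serpinb1a (-2.01) and Il1f9 (-2.35) below it.

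In the comparisons with no call, the pathway genes with the smallest p in their list did not pass either. Between DKOITD and ITD these included Nod1, a sensor of bacterial cell walls, with 5.30, 6.94, 5.21 and 8.45 RPKM in DKOITD, against 23.7 and 22.7 RPKM in ITD (difference -1.72 ± 0.43, SE, adjusted p = 0.0792). The DKOITD libraries all lay below the ITD libraries. Icam1 followed (2.53 ± 0.67, SE, adjusted p = 0.0935), then Serpinb1a (-1.92 ± 0.66, adjusted p = 0.183), Irak3 (-0.98 ± 0.37, adjusted p = 0.225) and Il1rl1 (1.13 ± 0.50, adjusted p = 0.302). Between ITD and WT, Il18bp had 18.2 and 29.99 RPKM in ITD, against 6.74, 0.378 and 8.19 RPKM in WT, without overlap (difference 2.405 ± 0.81, SE, adjusted p = 0.486). The others with the smallest p in their lists were Chuk (-1.60 ± 0.62, adjusted p = 0.563), Casp8 (1.31 ± 0.51, adjusted p = 0.570), Zc3h12a (-1.15 ± 0.56, adjusted p = 0.667), Brcc3 (1.11 ± 0.61, adjusted p = 0.685) and Sigirr (1.17 ± 0.82, adjusted p = 0.740).

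For each member up to 3 of the genes most alike were taken by Pearson's r of log2(RPKM + 1) over the 9 libraries, which all share their group differences and scaling, so r is a description. Il1r2 was most like Chi3l3 (0.960), Trem1 (0.954) and F10 (0.952), and Chi3l3 is itself on the list of neutrophil markers. Of the 13 measured markers 11 fell in DKOITD against WT, but Chi3l3 did not pass there by limma (-0.86 ± 0.64, SE, adjusted p = 0.383). Its highest value of all libraries was in DKOITD 2 (17742 RPKM), unlike most of that list. Il1rn was most like Actg1 (0.964) and Tnfaip8 (0.944), and Il18 was most like Mpv17l2 (0.985), Lbh (0.982) and Snora70 (0.975). Il1b was most like Ankrd46 (0.929), Ccdc18 (0.911) and Enthd2 (0.910). Il1rap was most like Ets2 (0.961), Stk38 (0.934) and Ulk2 (0.925). Among the inflammasome genes, Pycard was most like 2210016F16Rik (0.996), 1500011K16Rik (0.995) and Tmem192 (0.989), and Casp1 was most like Nudt16 (0.951), H2-D1 (0.933) and Igbp1 (0.913). Casp4 was most like Mb21d1 (0.954), Zfp326 (0.933) and Txndc16 (0.924), and Nlrp3 was most like Ssfa2 (0.944), Ebag9 (0.935) and Zfp963 (0.928). No member was among the 3 genes most like another member.

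Each library's name in the labels opens with a number whose meaning was not stated. DKOITD 1 to 3 were numbered between 228 and 274 and the remaining 6 libraries between 385 and 393, so this series and the DKOITD genotype cannot be told apart except through DKOITD 4. Within the higher series DKOITD 4 had 16.8 RPKM of Il1rn, below the 3 WT libraries (39.7 to 70.3 RPKM). It had 51.1 RPKM of Il18, above the 3 WT libraries (0 to 30.9 RPKM). With the series as a term in the fit, DKOITD 1 to 3 set only that term. DKOITD against WT was then DKOITD 4 alone against the 3 WT libraries. Those differences were -1.69 for Il1rn, 3.06 for Il18 and 0.20 for Il1b. For the pathway genes Icam1 and Il1f9 they were 3.73 and -1.13. With 1 DKOITD library behind each difference, this fit cannot show how much of the DKOITD differences went with the series.

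**Figure D5:**
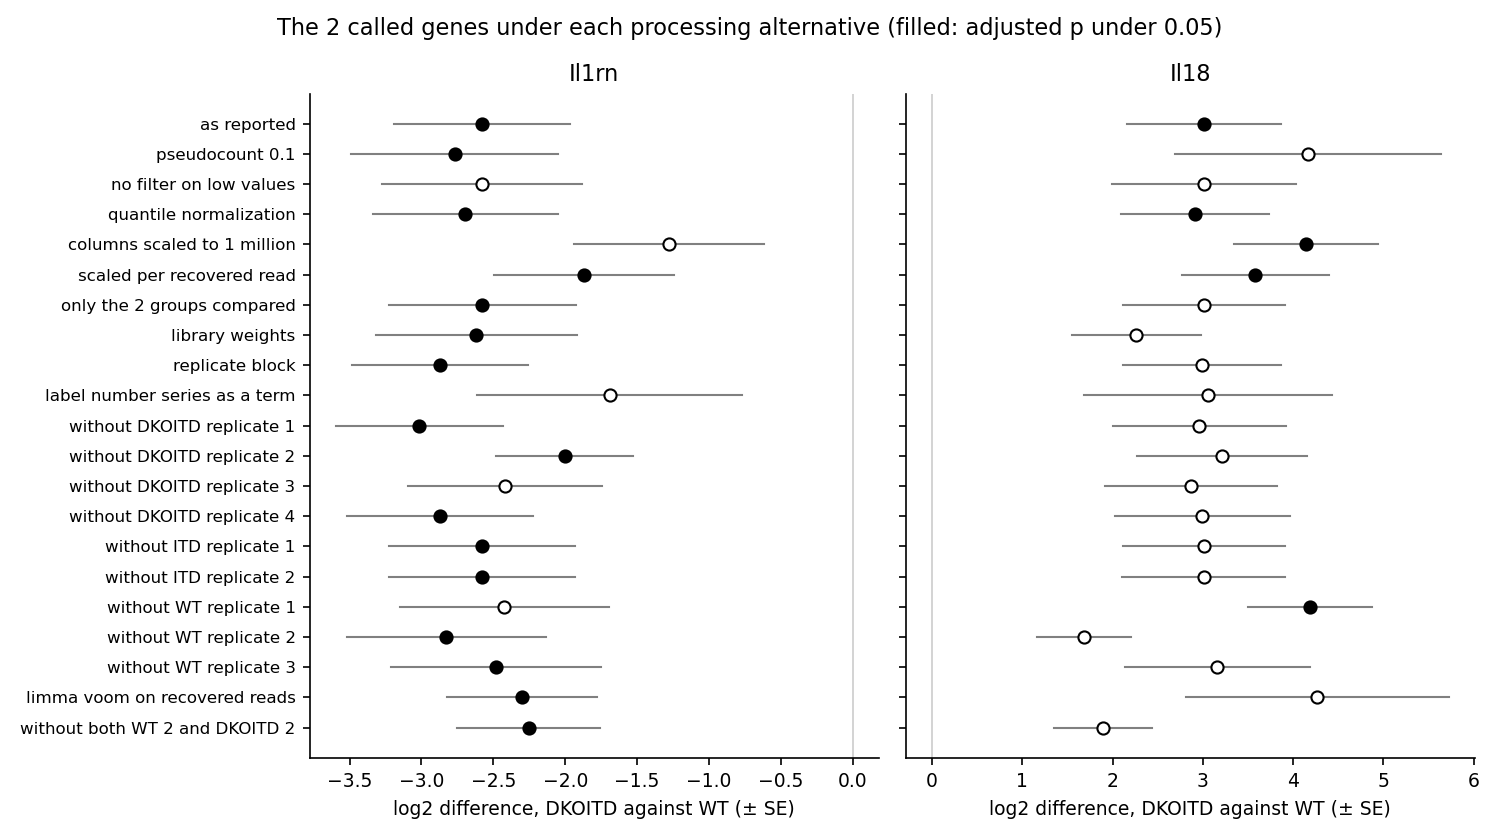
Log2 difference of Il1rn and Il18 between DKOITD and WT (x axis, points with SE lines) as reported and under each of 20 alternative fits (rows), filled for an adjusted p under 0.05. Il1rn lies between -3.01 and -1.28 and is filled in 15 of the alternatives, whereas Il18 lies between 1.69 and 4.27 and is filled in 4.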

How the data were processed

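RNA of 9 libraries was amplified by Smart-seq2, a method for whole transcripts that keeps no strand, per the labels' protocols. The authors deposited RPKM per gene symbol in 1 table of 23420 rows, made with STAR 2.4.2a, SAMtools 1.1 and HTSeq 0.6.1p1 on mm10, per the submitters' processing notes, which give no role or order. No annotation or scaling method was given in the sources used here, and without strand, reads of overlapping genes cannot be told apart. Groups and replicate numbers came from the sample titles, and no pair of libraries held identical values (highest correlation 0.931).

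Reads were recovered from the steps of the deposited RPKM: 15564 of 15566 genes above 0 gave whole reads (99.98% of values, tolerance 0.0001 reads, lengths of 20 to 30000 bp). Counting error is therefore known, and members rested on 12 to 4089 reads where they were above 0. Genes of at least 1 RPKM in at least 2 libraries (10868) were fitted as log2(RPKM + 1) with limma (version 3.58.1, R 4.3.3, trended eBayes). The fit held the 9 libraries together with genotype as its only factor, and tests were two-sided, with Benjamini-Hochberg adjustment over all genes and a threshold of 0.05. On the log2(RPKM + 1) scale changes of low genes are understated. The fit was tested on simulated data. Alternatives were another pseudocount, no filter, other scalings, other covariates, library weights and each library left out. A fit with limma voom on the recovered reads, one without both WT 2 and DKOITD 2 and the spread without DKOITD 2 were chosen after seeing the data.

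The members and gene lists were chosen with earlier results of these data known. The 9 members are named in every library. Pathway genes past the threshold are named, or up to 2 with the smallest p where none passed, and the 3 most alike genes per member, of which 1 is not reported here. Il18bp, Il1a, Il18r1, Il18rap, Il1r1, Gsdmd, Gzma, Ncr1, Cd79b, Cd3d, Beta-s and the genes at 0 were named after their values were seen. Gene positions are from GENCODE vM21 (mm10) by symbol.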

Additional observations from a re-analysis of the deposited data

Results flagged for a closer look

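Casp1 in DKOITD was marked because its lowest library stood apart: DKOITD 2 had 58.4 RPKM, against 106 to 115 RPKM in the other 3 DKOITD libraries, and its gap to the nearest covered 0.850 of the range of the group, above Dixon's 95% critical value for 4 libraries. The 9 members were each tested this way in DKOITD, and chance marks about 1 in 20 such groups. DKOITD 2 was also the library with the fewest recovered reads (2825728), and its Casp1 value rested on 323 reads. Il1r2 in the same library, the highest of DKOITD, covered 0.811 of the range and was not marked.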

How the results depend on the processing

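Values below are differences between DKOITD and WT unless said otherwise. Under the alternatives to the 1380 genes and 2 members passing by limma, the counts of genes passing in DKOITD against WT, DKOITD against ITD (23) and ITD against WT (1) moved as follows. They were 1127, 21 and 2 with a pseudocount of 0.1 (1 member passing against WT), 733, 24 and 3 without the filter (0 members), 1445, 42 and 1 after quantile normalization (2 members), 5135, 1575 and 1 with columns scaled to 1000000 (4 members, and 1 against ITD, Casp4) and 2772, 274 and 1 per recovered read (5 members). They were 1114, 46 and 0 with only the groups compared (1 member), and 1161, 526 and 1 with library weights (1 member, and 1 against ITD, Il1rn). When the label number series was a term, DKOITD was estimated from DKOITD 4 alone, so its counts are not given, and ITD against WT gave 1. The voom fit gave 1567, 0 and 0 (2 members), and the fit without both WT 2 and DKOITD 2 gave 771, 71 and 1 (2 members); in both the members were Il1rn and Il1r2, and Il18 did not pass (adjusted p = 0.0641 with voom and 0.0634 without both libraries). With 1 library left out the counts ran from 537 to 1955, from 0 to 157 and from 0 to 47, and those of members passing from 0 to 2 against WT and were 0 elsewhere. Of the genes passing, 807 were higher and 573 lower as reported, 5008 were higher at a sum of 1000000, and 2525 were higher and 247 lower per recovered read, while 678 were higher and 767 lower after quantile normalization.

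Over 7 same-numbered pairs the deviations from group means correlated between -0.044 and 0.071, against -0.127 to 0.166 over pairs with different numbers. Same-numbered pairs did not stand out by this measure. The deviations of the 2 ITD libraries mirror each other, so pairs with ITD say little on pairing. With the replicate block 884, 57 and 0 genes passed, with 1 member passing in DKOITD against WT, Il1rn (-2.87).

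Of the log2 differences of members and named pathway genes, 666 kept their direction and side of the threshold, 75 no longer passed, 18 newly passed and 21 changed sign, none of them passing. Those that changed sign were Nlrp3 after quantile normalization (-0.062) and with the series term (-0.19), Il1b with the series term (0.20), Il1rap at a sum of 1000000 (0.038), and Sigirr against ITD with the series term (-0.011). In ITD against WT they were Il1rap (0.070) and Casp4 (0.036) at a sum of 1000000, Il1rap (0.12) and Casp4 (0.12) with voom, Il1r2 with the block (-0.034) and Il1rn without both libraries (-0.11). With 1 library left out, Nlrp3 ran from -0.024 to 0.75, and against ITD Casp4 from -0.054 to 1.85 and Il1rap from -1.57 to 0.030. In ITD against WT Il1rap ran from -0.997 to 0.61, Casp4 from -1.24 to 0.67, Il1rn from -0.12 to 0.40, Il1r2 from -0.054 to 0.63, Nlrp3 from -0.74 to 0.033 and Casp1 from -0.16 to 0.82. The cause of these changes was not tested.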
